A study of Mus musculus and synthetic construct with 30 samples.

Results

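Mouse embryonic stem cells (mESCs) and E14.5 mouse kidney, which is mid-gestation, were compared by poly(A) RNA sequencing, using every mESC and kidney sample of the study, which is 12 of its 30 samples. The 6 mESC samples were 3 wells of 1 wild-type (WT) clone and 3 wells of 1 Peril knockout (KO) clone, all male, derived from preimplantation embryos and grown in 2i medium on feeder fibroblasts of mouse embryos. The 6 kidney samples were E14.5 kidneys of 6 littermates from litter 43, namely WT embryos 1 (male), 3 (female) and 8 (male) and KO embryos 7 (male), 9 (female) and 10 (female). The mice were on a C57BL/6J/129S6 background (N3-C57BL/6J, no Neo) and carried the strain name Periltm1.1Vlcg, in which LacZ replaces the gene body of the long noncoding RNA gene Peril. Genotype entered the comparison as a covariate, and the results below concern genes of the 19 autosomes. Because the wells of a genotype came from 1 clone, the p-values for the mESC side measure the spread between wells. Tissue cannot be told apart from culture, from sex in part, from the amount of input RNA or from library preparation.

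Stem cells of the early embryo keep their state through a network of transcription factors built on OCT4 (Pou5f1), SOX2 and NANOG. The 2i medium holds an inhibitor of the kinase MEK and an inhibitor of GSK3, which blocks ERK signalling and stabilises beta-catenin, and it keeps the cells in the naive state of the preimplantation epiblast. The E14.5 kidney is built by reciprocal signalling: the cap mesenchyme, marked by Six2, secretes GDNF, which acts on RET in the ureteric bud, and the bud returns WNT signals that turn cap cells into nephrons. Stromal cells marked by Foxd1, vessels, blood and resident macrophages surround these epithelia. In such bulk samples, fewer cells of a type and less RNA per cell cannot be told apart.

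The libraries held between 17544707 and 40522622 summed counts in mESCs and between 19263097 and 45924887 in kidneys. More genes reached 1 TPM (a level that is scaled by transcript length and library size) in kidney samples (13055 to 13342) than in mESC samples (12027 to 12237). Normalized log2 counts correlated at 0.6932 to 0.7117 between mESC and kidney samples and at 0.9853 or above within a group, and the first principal component, with 95% of the variance, divided the tissues. Mitochondrial genes took 3.15% to 3.63% of counts in mESCs and 5.9% to 7.46% in kidneys, and the 10 most abundant genes took 9.05% to 10.17% against 15.32% to 17.66% of TPM. LacZ stood at 69.6 to 73.7 TPM in the KO wells and at 0.07 TPM or below in the WT wells. Peril was near the floor in all wells, at 0.33 to 0.57 TPM in WT and 0.16 to 0.24 TPM in KO. In kidneys LacZ stood at 0.08 to 0.47 TPM in both genotypes and Peril was at 0 in all 6, so that neither gene checked the kidney genotypes. Between the clones, 627 autosomal genes were higher and 651 lower in the KO wells (adjusted p under 0.05).

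Nearly every autosomal gene that could be tested differed between the tissues. Of 15691 autosomal genes tested with edgeR's quasi-likelihood test, 6717 (42.8%) were higher in mESCs and 7459 (47.5%) were higher in kidney at a Benjamini-Hochberg adjusted p under 0.05. Differences of at least 4-fold were fewer in mESCs (1661 genes, 10.6%) than in kidney (3282 genes, 20.9%). The quartiles of the log2 difference, mESC over kidney, were -1.53 and 0.83, and the median was -0.09. These 4 shares are the background against which each gene list below is read, because membership alone makes a call likely. Of 13486 called genes that could be tested in each genotype by itself, 12295 (91.2%) were called in the same direction in WT samples alone and in KO samples alone, and 27 autosomal genes were called in both genotypes with opposite signs. The tissue difference itself differed between WT and KO samples for 406 autosomal genes (2.59%).

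**Figure D1:**
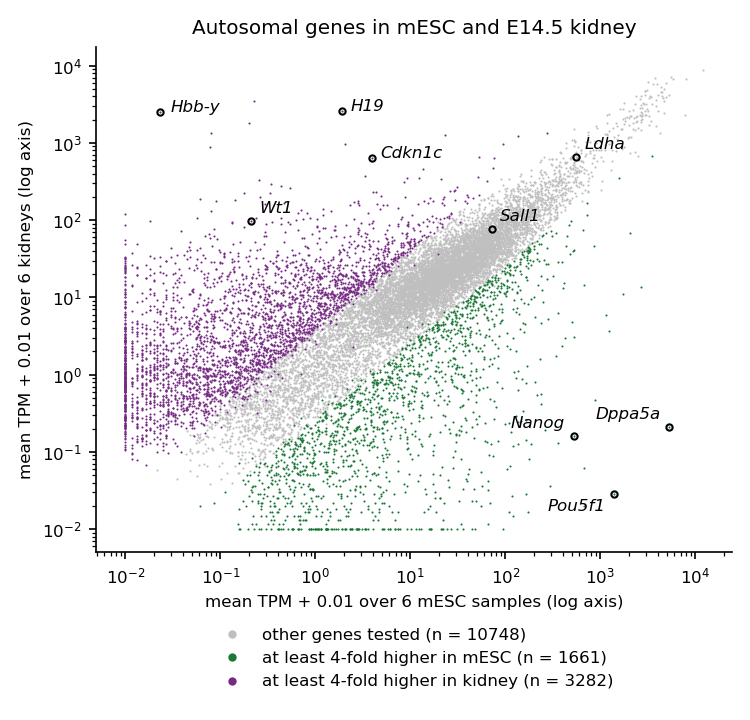
Mean TPM + 0.01 of each autosomal gene tested over the 6 mESC samples (horizontal log axis) and over the 6 kidneys (vertical log axis), coloured where the gene differed by at least 4-fold at an adjusted p under 0.05. The 3282 genes higher in kidney outnumber the 1661 higher in mESCs, and Sall1 and Ldha lie near the diagonal.

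Pluripotency genes were among the largest differences. Pou5f1 (17:35506018-35510772, mm10, plus strand), which encodes OCT4, stood at 1375, 1401 and 1426 TPM (lowest, median and highest) in mESCs, while the 6 kidneys together held 3 counts, a ratio of 82572 with a 95% exact counting interval of 28254 to 400404. Of these counts 2 were in kidney WT 3, without which the ratio was 213223. The marker Nanog (6:122707489-122714633, plus strand) stood at 502, 521 and 540 TPM in mESCs and at 0.08, 0.135 and 0.23 TPM in kidneys, a log2 difference of 11.86 ± 0.105 (SE, adjusted p = 1.77e-19). The value after ± is derived from the test statistic and can understate the error where 1 tissue has few counts. More abundant than either was Dppa5a (9:78367052-78368177, minus strand), which encodes an RNA-binding protein of pluripotent cells, at 5162 to 5612 TPM in mESCs and at most 0.36 TPM in kidneys. The samples of the tissues did not overlap for any of these 3 genes. With Pou5f1 and Dppa5a, the 10 largest differences by the naming rule were those of Tdgf1 (the NODAL co-receptor, 585 to 742 TPM), Fgf4 (the growth factor of the epiblast, 158 to 181 TPM), Lefty2 (a NODAL inhibitor, 259 to 360 TPM), Tdh (threonine dehydrogenase, 637 to 693 TPM), Tcl1 (an AKT cofactor, 104 to 141 TPM), Tex19.1 (a germ line gene, 44.4 to 49.7 TPM), AU018091 (59.2 to 70 TPM) and Krt42 (a keratin, 64 to 123 TPM), and none of these 8 passed 0.11 TPM in a kidney.

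Globins led in the other direction. Hbb-y (7:103851749-103853216, minus strand), the embryonic beta-like globin, stood at 1995 to 3062 TPM in kidneys and had 1 count over the 6 mESC samples, a ratio of 132085 with a counting interval of 23706 to 5217105. That count was in well WT 3, without which Hbb-y was at least 34323-fold higher. Hba-a1, Hba-a2, Hbb-bt and Hbb-bs also ranked among the 10 largest differences, with kidney levels of up to 1583, 2093 to 6133, 901 to 2077 and 1136 to 2886 TPM, and the estimates of these near-identical copies are uncertain because shared reads are divided among them. The rest of the 10 were genes of the kidney and its vessels. Calb1, a calcium-binding protein of the ureteric bud and distal tubule, stood at 36.5 to 57.3 TPM in kidneys, with no count in mESCs, and was at least 7459-fold higher when 3 counts stand for none. Tcf21, a transcription factor of kidney mesenchyme and podocytes, stood at 107 to 137 TPM and was at least 4810-fold higher. Cdh16, the kidney-specific cadherin, Cldn1, a tight junction protein, and Rgs5, a pericyte gene, stood at 20.7 to 46.9, 22.6 to 32.4 and 33.8 to 47.2 TPM.

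Genes detected in 1 tissue and without a count in the other were few. Of autosomal genes, 11068 reached 1 TPM in all 6 mESC samples, 11993 in all 6 kidneys and 10069 in all 12 samples. Only 54 of those in all mESC samples had no count in any kidney, and 111 of those in all kidneys had no count in any mESC sample. By level, Krt42, Tex19.1, Rbmxl2 (41.1 to 50.1 TPM), Gm6792 (27.1 to 48 TPM) and Gm8909 (21.8 to 41 TPM) led the first set. Tcf21, Hba-x (an embryonic alpha-like globin, 64.1 to 134 TPM), Fabp4 (a fatty acid carrier of endothelium and fat, 40.3 to 64.3 TPM), Calb1 and Cdh16 led the second.

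The defining markers were high in the tissue of their label. Zfp42 (REX1) stood at 107 to 112 TPM and Esrrb at 340 to 374 TPM in mESCs, against at most 0.02 and 0.18 TPM in kidneys. In kidneys Pax2 (34.2 to 53.5 TPM), Wt1 (89.8 to 109), Six2 (97.2 to 120), Ret (6.02 to 10.8) and Foxd1 (58.1 to 90.1) marked nephrogenic mesenchyme, bud and stroma, and none of them passed 0.55 TPM in an mESC sample. Feeder genes were low in the wells: Col1a1 stood at 0.25 to 0.6 TPM, Col3a1 at 0.05 to 0.5 and Thy1 at 0.8 to 2.2, against 214 to 392, 275 to 455 and 16.6 to 21.1 TPM in kidneys. The 3 markers of differentiated cells stood at 0.26 to 0.74 TPM (T, which was nevertheless higher in mESCs than in kidney), 0.05 to 0.14 TPM (Gata6) and 0.11 to 0.26 TPM (Sox17) in the wells, while other genes of early germ layers, described with the primed list below, were higher there. Kidney samples held RNA of vessels (Cdh5, 20.1 to 34.4 TPM), macrophages (Csf1r, 2.9 to 4.82; C1qa, 5.56 to 10.9), muscle (Acta1, 0.67 to 8.95), nerve or glia (Sox10, 0.02 to 3.86) and liver-type genes (Alb, 0.35 to 4.96). The adrenal factor Nr5a1 was near the floor at 0.1 to 0.15 TPM.

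**Figure D2:**
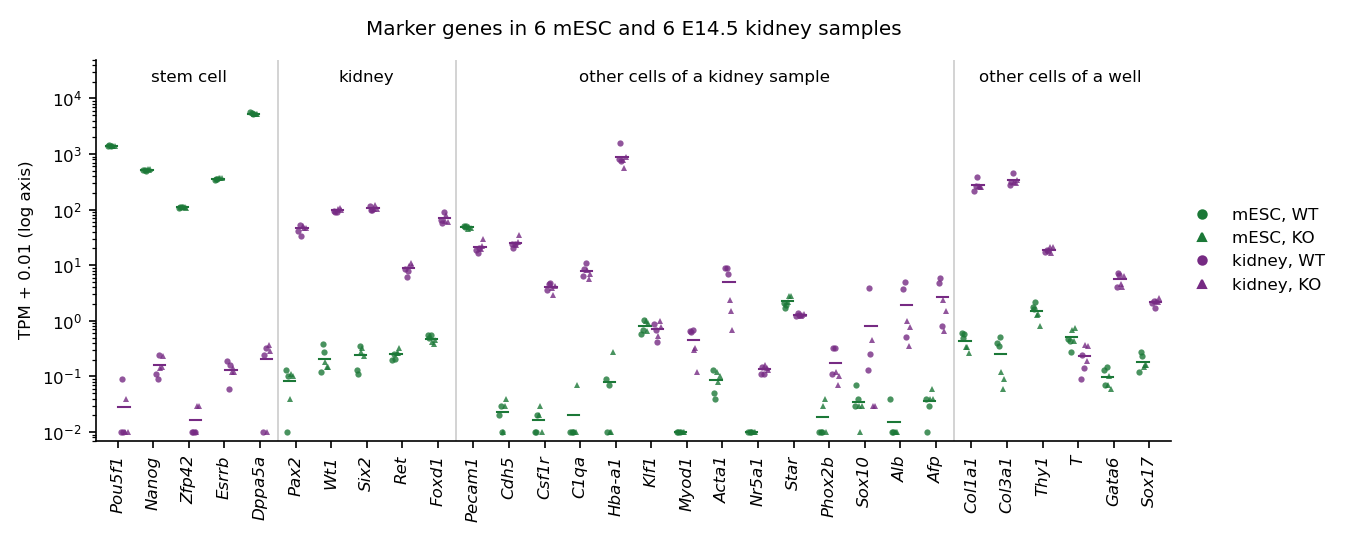
TPM + 0.01 (log axis) of the 30 marker genes in each of 6 mESC (green) and 6 kidney samples (purple), circles for WT and triangles for KO, with a line at the mean. Stem cell and kidney markers lie apart by tissue, while Pecam1, Klf1, Star and T have similar or higher levels in mESCs.

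Naive pluripotency genes were higher in mESCs without exception. Where levels are given below as a pair joined by "against", the mESC range comes first and the kidney range second. All 32 genes of the list could be tested, 32 were higher in mESCs and 31 of them by at least 4-fold (background 42.8% and 10.6%), with a median log2 difference of 10.61. Spp1, a secreted phosphoprotein, stood at 1110 to 1294 TPM against 0.56 to 7.82 TPM, and Sox2, the partner of OCT4, at 250 to 268 against 0.01 to 0.89 TPM. Dppa3 (STELLA), a maternal-effect gene that protects DNA methylation, stood at 42.1 to 68.5 against at most 0.06 TPM. Some members were also expressed in kidney. Klf4, also a factor of epithelia, stood at 149 to 194 TPM in mESCs and 13.6 to 25.7 TPM in kidneys, Tbx3 at 66 to 75.5 against 7.87 to 13.1 TPM, and Mycn, which the kidney uses in its progenitors, at 94.9 to 110 against 35 to 44.8 TPM, the 1 member under 4-fold (log2 difference 1.37 ± 0.0338). The list's summed level was 13023 to 13684 TPM in mESCs and 94.5 to 106 TPM in kidneys.

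The upstream sequence of Nanog is shown because it holds the core of the octamer that OCT4 binds and because the gene was at 502 TPM or above in each mESC sample. The 250 bases before the start that RefSeq gives (GRCm38.p6, chr6:122707239-122707488, plus strand) are printed 5′ to 3′, with the octamer core TTTGCAT in capitals, 75 bases before the start.
Nanog: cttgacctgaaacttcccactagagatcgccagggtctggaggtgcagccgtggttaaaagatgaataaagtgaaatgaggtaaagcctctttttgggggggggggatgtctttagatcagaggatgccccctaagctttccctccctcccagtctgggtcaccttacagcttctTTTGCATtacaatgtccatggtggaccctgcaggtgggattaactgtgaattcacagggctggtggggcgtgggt
The core, searched as TTTGCAT on both strands, occurred in the 250-base upstream part of 1355 of 32851 promoter windows in the RefSeq table (4.12%), and a match is a description of letters only.

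Genes of the primed state and of early germ layers were mostly higher in mESCs as well. Of 24 genes, 20 were tested, 16 were higher in mESCs (14 at 4-fold) and 4 in kidney (3 at 4-fold), with a median log2 difference of 6.06. Lefty2, Nodal (62.6 to 77.6 TPM) and Lefty1 (57.4 to 79 TPM), which form 1 signalling loop of the epiblast, and Otx2 (28.5 to 59.4 TPM), a factor of the primed epiblast, were at most 1.4 TPM in a kidney. Factors of gastrulating cells were at low levels in mESCs, such as Eomes (4.14 to 5.06 TPM), Gsc (2.05 to 4.56 TPM) and Gata4 (3.44 to 5.21 TPM), and Fgf5, the classic primed marker, stood at only 0.12 to 0.33 TPM. The members higher in kidney were Gata6 (4 to 7.38 TPM), Sox17 (1.69 to 2.58 TPM), Dnmt3a and Fgf5 (0.25 to 0.84 TPM). Genes of the 2-cell stage could hardly be measured: 15 of 18 were in the files and only Eif1a was tested, at 197 to 214 TPM against 93.2 to 120 TPM, while the Zscan4 genes did not pass 0.12 TPM.

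Germ line genes were higher in mESCs for most of the list. Of 23 genes, 20 were tested, 16 were higher in mESCs, each by at least 4-fold, 3 were higher in kidney and 1 was not called, with a median log2 difference of 4.45. Tex19.1, which guards against transposons, and Sohlh2, a factor of spermatogonia (4.65 to 5.84 TPM), had no count in kidneys. Hormad1, a protein of meiotic chromosome axes, stood at 13.3 to 18.1 against at most 0.04 TPM, Rpl10l, a testis ribosomal protein, at 22.1 to 22.9 against at most 0.07, and Dazl, an RNA-binding protein of germ cells, at 2.6 to 5.12 against at most 0.09 TPM. The exceptions were the piRNA pathway genes Tdrkh (0.18 to 0.42 TPM in mESCs, 3.77 to 4.51 in kidneys) and Tdrd1 (0.06 to 0.17 against 0.66 to 1.08), and the testis bromodomain gene Brdt (0.16 to 0.81 against 1.1 to 2.49).

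Upstream sequences of 3 germ line genes are shown because the E-box CACGTG, which is its own reverse complement and is the site of MAX-type factors, recurs in the list. RefSeq gave a window for 18 of the 20 genes tested, and 10 of these held CACGTG in the 250 bases before the start (55.6%), against 1978 of all 32851 windows (6.02%). These sets are unlike: the first has 1 window per gene of a chosen list, the second all windows, and a gene can have more than 1. The 10 were 8 of 14 genes higher in mESCs and 2 of 3 genes higher in kidney, numbers too small to compare the directions, and no test was made. The sequences run 5′ to 3′ with CACGTG in capitals: Mael, a piRNA factor (chr1:166238745-166238994, minus strand, 0.95 to 3.4 TPM in mESCs), Hormad1 (chr3:95559427-95559676, plus strand) and Sycp3, a protein of the synaptonemal complex (chr10:88459337-88459586, plus strand, 1.76 to 4.56 TPM).
Mael: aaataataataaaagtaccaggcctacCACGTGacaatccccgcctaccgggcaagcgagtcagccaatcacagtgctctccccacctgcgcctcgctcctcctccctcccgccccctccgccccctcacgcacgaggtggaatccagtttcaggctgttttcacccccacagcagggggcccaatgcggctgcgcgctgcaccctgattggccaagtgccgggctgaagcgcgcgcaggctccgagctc
Hormad1: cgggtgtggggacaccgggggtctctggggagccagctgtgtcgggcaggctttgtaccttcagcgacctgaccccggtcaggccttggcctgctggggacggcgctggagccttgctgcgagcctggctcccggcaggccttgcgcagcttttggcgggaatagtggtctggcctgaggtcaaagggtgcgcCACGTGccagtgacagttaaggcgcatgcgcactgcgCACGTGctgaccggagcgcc
Sycp3: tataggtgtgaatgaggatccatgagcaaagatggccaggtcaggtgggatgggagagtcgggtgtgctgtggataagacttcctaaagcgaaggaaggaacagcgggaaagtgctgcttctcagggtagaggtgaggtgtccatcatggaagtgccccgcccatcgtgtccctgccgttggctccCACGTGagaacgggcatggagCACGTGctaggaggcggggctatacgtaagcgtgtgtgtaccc
Mael held the motif 1 time, 223 bases before the start, while Hormad1 and Sycp3 each held it 2 times, the nearest at 20 and 43 bases.

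LIF and STAT3 pathway genes were mostly higher in mESCs, MEK and ERK targets mostly higher in kidney, and WNT targets went in both directions. An effect of the medium cannot be told apart from tissue. In the LIF and STAT3 pathway, which supports self-renewal, 13 of 17 genes tested were higher in mESCs (9 at 4-fold) and 4 in kidney, with a median of 2.12. The receptor Lifr stood at 17.5 to 21.6 against 5.44 to 6.65 TPM and Stat3 at 53 to 63.3 against 10.7 to 15.7 TPM. Its targets Socs3 (62 to 77.2 against 7.12 to 9.2 TPM) and Bcl3 (26 to 37.4 against 0.54 to 1.7 TPM) were higher in mESCs, as was Lif itself (4.65 to 6.28 against 0.07 to 0.34 TPM). The kinases Jak1 (17.2 to 19.9 against 34.4 to 43.1 TPM) and Jak2 and the related receptor Osmr were higher in kidney.

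Targets of MEK and ERK were higher in kidney for 15 of 21 genes (9 at 4-fold) and in mESCs for 6, with a median of -1.63. Egr1, an immediate early factor, stood at 0.23 to 0.41 TPM in mESCs and 8.74 to 11 TPM in kidneys, and Phlda1 at 1.18 to 1.51 against 23.2 to 30.3 TPM. Dusp6, the ERK phosphatase, stood at 9.38 to 10.2 against 39.6 to 56.5 TPM. Etv5 went the other way (173 to 183 against 34.5 to 43.3 TPM), as did Spry2 (50.3 to 67.4 against 19 to 24.9 TPM). Etv4 and Spry4 were higher in kidney in both genotypes, but their difference was smaller in KO than in WT samples (by 1.83 and 1.41 on the log2 scale, adjusted p = 2.39e-05 and 0.00237, edgeR interaction). Etv4 stood at 2.72 to 4.48 TPM in WT wells, 13.7 to 16.6 in KO wells and 53.4 to 68.7 in kidneys.

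Of 21 canonical WNT targets tested, 7 were higher in mESCs (3 at 4-fold) and 12 in kidney (8 at 4-fold), with a median of -1.32. Over all autosomal genes tested the shares were 42.8% and 47.5% (10.6% and 20.9% at 4-fold). Axin2, the common reporter of the pathway, stood at 11.4 to 16.1 TPM in mESCs and 10.8 to 14.9 in kidneys and was not called (adjusted p = 0.0899). Notum, a secreted WNT inhibitor, stood at 50.8 to 76.3 against 1.61 to 4.94 TPM, and Sp8 (0.34 to 0.56 TPM, with 2 counts over the kidneys) and Cdx1 (1.15 to 3.56 against at most 0.1 TPM) were also higher in mESCs. Nkd1, an intracellular inhibitor (0.1 to 0.22 against 11.4 to 13.8 TPM), Lgr5, the R-spondin receptor (at most 0.08 against 1.11 to 2.22 TPM), and Dkk1 (0.06 to 0.28 against 3.51 to 9.54 TPM) were higher in kidney.

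Nephron progenitor genes stood at the other end from pluripotency genes. Of 19 autosomal members, all tested, 16 were higher in kidney (15 at 4-fold; background 47.5% and 20.9%), 2 in mESCs and 1 was not called, with a median of -8.51. Gdnf, the ligand of the bud, stood at 20.3, 26.4 and 29.1 TPM in kidneys and had 1 count over the mESC samples, and Osr1, the first factor of the lineage, stood at 21.8 to 33.6 TPM with no count in mESCs. Hoxa11 and Hoxd11, which the metanephros needs, stood at 38.8 to 47.1 and 80.8 to 107 TPM. Sall1, a zinc finger factor of the cap, was shared: 64.7 to 80 TPM in mESCs and 65.5 to 86.5 TPM in kidneys (log2 difference -0.09 ± 0.0448, adjusted p = 0.0645), and this call was not stable across settings. Lin28b, which blocks let-7 maturation, was higher in mESCs (4.52 to 5.53 against 1.28 to 1.73 TPM).

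Genes of early nephrons and of podocytes were higher in kidney for most of both lists. For early nephrons 20 of 22 genes tested were higher in kidney (18 at 4-fold, median -4.53), among them Emx2 (11.7 to 28.4 TPM, no count in mESCs), Heyl (14.4 to 24.4 TPM), Wnt4 (7.97 to 27.7 TPM), which drives cap cells to epithelium, and Lhx1, a factor of the renal vesicle (median 15.3 TPM). Irx2 was the exception (6.24 to 7.88 TPM in mESCs, 0.29 to 2.31 in kidneys). For podocytes 16 of 19 genes were higher in kidney (14 at 4-fold, median -5.37), among them Tcf21, Foxc1 (at most 0.05 against 19.2 to 22.5 TPM) and Foxc2 (at most 0.17 against 29.4 to 35.5 TPM). The slit diaphragm gene Nphs1 was higher in mESCs at low level (1.79 to 4.09 against 0.02 to 1.59 TPM, log2 difference 2.85 ± 0.511, and 3.59 without kidney KO 7).

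Part of the tubule genes could not be tested. Of 19 proximal tubule genes 12 were tested, 8 were higher in kidney and 3 in mESCs, with a median of -3.24. Aqp1, the water channel, stood at 3.81 to 6.74 TPM in kidneys and Slc39a8, a zinc and manganese carrier, at 3.63 to 5.68 TPM, and the transporters Slc34a1, Slc5a2 and Slc22a12 were not tested (at most 0.76 TPM). The list's summed level was higher in mESCs (389 to 453 against 12.5 to 23 TPM), because Ass1, the urea cycle enzyme argininosuccinate synthase, stood at 371 to 438 TPM there and at 1.84 to 3.2 TPM in kidneys. Of 14 genes of the loop of Henle and distal tubule 9 were tested, 7 were higher in kidney and 1 in mESCs. Calb1 (36.5 to 57.3 TPM in kidneys), Tmem52b (0.67 to 3.1 TPM) and Umod (0.3 to 0.5 TPM) had no count in mESCs, and Calb1 made up most of the summed level of the list in kidneys, 45.4 to 70.8 TPM.

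Of 28 ureteric bud and collecting duct genes tested, 25 were higher in kidney (22 at 4-fold) and 3 in mESCs, with a median of -4.11. Ret stood at 6.02, 9.16 and 10.8 TPM in kidneys against 0.19 to 0.32 TPM, and Wnt11, which RET signalling induces at the tips, at 0.39 to 1.38 against 21.2 to 40.8 TPM. Wnt9b, the signal of the stalk to the cap, stood at 2.78 to 6.21 TPM. Those higher in mESCs were Aqp3 (25.6 to 65.7 against 0.68 to 2.6 TPM), Elf3 (41.6 to 51.6 against 3.69 to 7.63 TPM) and Etv5.

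Genes of the stroma were nearly all higher in kidney. Of 26 genes tested, 25 were higher in kidney (24 at 4-fold, median -7.48) and only Sfrp1, a secreted WNT antagonist, was higher in mESCs (189 to 225 against 55.3 to 94.1 TPM). Foxd1 stood at 58.1, 64.4 and 90.1 TPM in kidneys, Fat4, the giant cadherin that signals to the cap, at 17.3 to 29.3 TPM, and Aldh1a2, which makes retinoic acid, at 2.88 to 3.73 against 329 to 405 TPM. The list's summed level was 2669 to 3653 TPM in kidneys and 236 to 287 TPM in mESCs, where Sfrp1 made up most of it.

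Gene lists of other cells that kidney samples can hold also differed. Of 21 endothelial genes, 17 were higher in kidney (15 at 4-fold, median -5.2), such as Emcn (26.7 to 39.5 TPM, no count in mESCs) and Ramp2 (0.56 to 2.31 against 63.5 to 77.6 TPM). Pecam1 was higher in mESCs (44.4 to 50 against 16.6 to 29.3 TPM), as was Eng, and Tek was at like levels (8.53 to 11.5 against 8.75 to 13 TPM, not called). Of 16 genes of smooth muscle, pericytes and renin cells, 15 were higher in kidney (12 at 4-fold) and Mcam in mESCs (62 to 96.6 against 20 to 25.4 TPM). Renin itself (Ren1) ranged from 1.16 to 17.3 TPM between kidneys. Cspg4 (NG2), a pericyte proteoglycan, stood at 4.96 to 6.84 TPM.

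Of 18 macrophage genes tested, 15 were higher in kidney, each by at least 4-fold, with a median of -8.42 (-7.19 with the 6 genes without a count in mESCs at their lower bound). C1qb (9.1 to 13 TPM) and Lyz2 (8.52 to 24 TPM) had no count in mESCs. Laptm5, a lysosomal protein best known from blood cells, was higher in mESCs (194 to 228 against 4.16 to 7.55 TPM), as was Cd68 (21.4 to 28.8 against 2.81 to 4.8 TPM). The summed level of the list was therefore higher in mESCs (217 to 254 against 69.3 to 124 TPM), although Csf1r (at most 0.02 TPM) and the C1q genes (at most 0.06 TPM) were near or at 0 there. Of 14 erythroid genes 13 were higher in kidney, all by at least 4-fold, with a summed level of 7080 to 15304 TPM against 2.44 to 3.65 TPM, and the erythroid factor Klf1 was not called (0.56 to 1.02 against 0.4 to 0.97 TPM). Kidney sample WT 3 had the highest adult alpha-globin level, with Hba-a2 at 6133 TPM against 2093 to 3468 TPM in the others.

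The Hba-x promoter is shown as a globin gene with no count in mESCs. The 250 bases before its start (chr11:32276350-32276599, plus strand, RefSeq, GRCm38.p6) hold a TATA box, TATAAA in capitals, 28 bases before the start, and 1 CG dinucleotide.
Hba-x: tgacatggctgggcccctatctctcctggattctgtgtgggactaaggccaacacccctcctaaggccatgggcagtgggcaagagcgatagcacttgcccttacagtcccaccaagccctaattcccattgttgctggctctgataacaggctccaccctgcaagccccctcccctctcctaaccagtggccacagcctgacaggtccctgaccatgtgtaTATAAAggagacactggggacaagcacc
TATAAA, searched on both strands, occurred in 4063 of the 32851 upstream windows (12.4%).

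Lists of cells from neighbouring tissue were mixed. Of 15 skeletal muscle genes tested 12 were higher in kidney, among them Actc1 (3.84 to 17 TPM), Myl1 (1.73 to 10.6 TPM) and Myod1 (0.11 to 0.68 TPM), none with a count in mESCs. Mylpf, a myosin light chain of fast muscle, was higher in mESCs (153 to 238 against 3.88 to 17.7 TPM), as were Ttn (1.16 to 1.76 against at most 0.07 TPM) and Neb. Of 16 genes of neurons, glia and neural crest 7 were higher in mESCs, led by Foxd3 (11.9 to 15.8 against at most 0.53 TPM), with Stmn2 (259 to 291 against 10.8 to 27.9 TPM) and Tubb3 (97.3 to 110 against 1.29 to 3.5 TPM). Another 8 were higher in kidney, among them Fabp7 (5.08 to 7.88 TPM) and Dbh (0.04 to 2.01 TPM). Kidney WT 3 stood apart for Sox10, a factor of neural crest and Schwann cells, at 3.86 TPM against 0.02 to 0.45 TPM in the other kidneys. The log2 difference of Sox10 was -4.83 over all samples and -2.43 without that kidney, and those of Foxd3 and Sox2, which Schwann cells and their precursors also express, went from 7.1 to 9.13 and from 10.68 to 12.88. Of 12 liver genes 7 were higher in kidney, such as Itih2 (0.5 to 1.78 TPM), and 4 in mESCs, led by Fetub (22.9 to 31.4 TPM, no count in kidneys). Of 5 genes of adrenal cortex and gonad tested, Hsd3b6 (2.08 to 3.36 TPM), Mc2r, the ACTH receptor (1.86 to 3.2 TPM), and Inha were higher in kidney, and Scarb1 (44.9 to 53 against 17.2 to 23.4 TPM) and Star in mESCs. How far such cells contribute to a kidney difference was not tested.

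**Figure D3:**
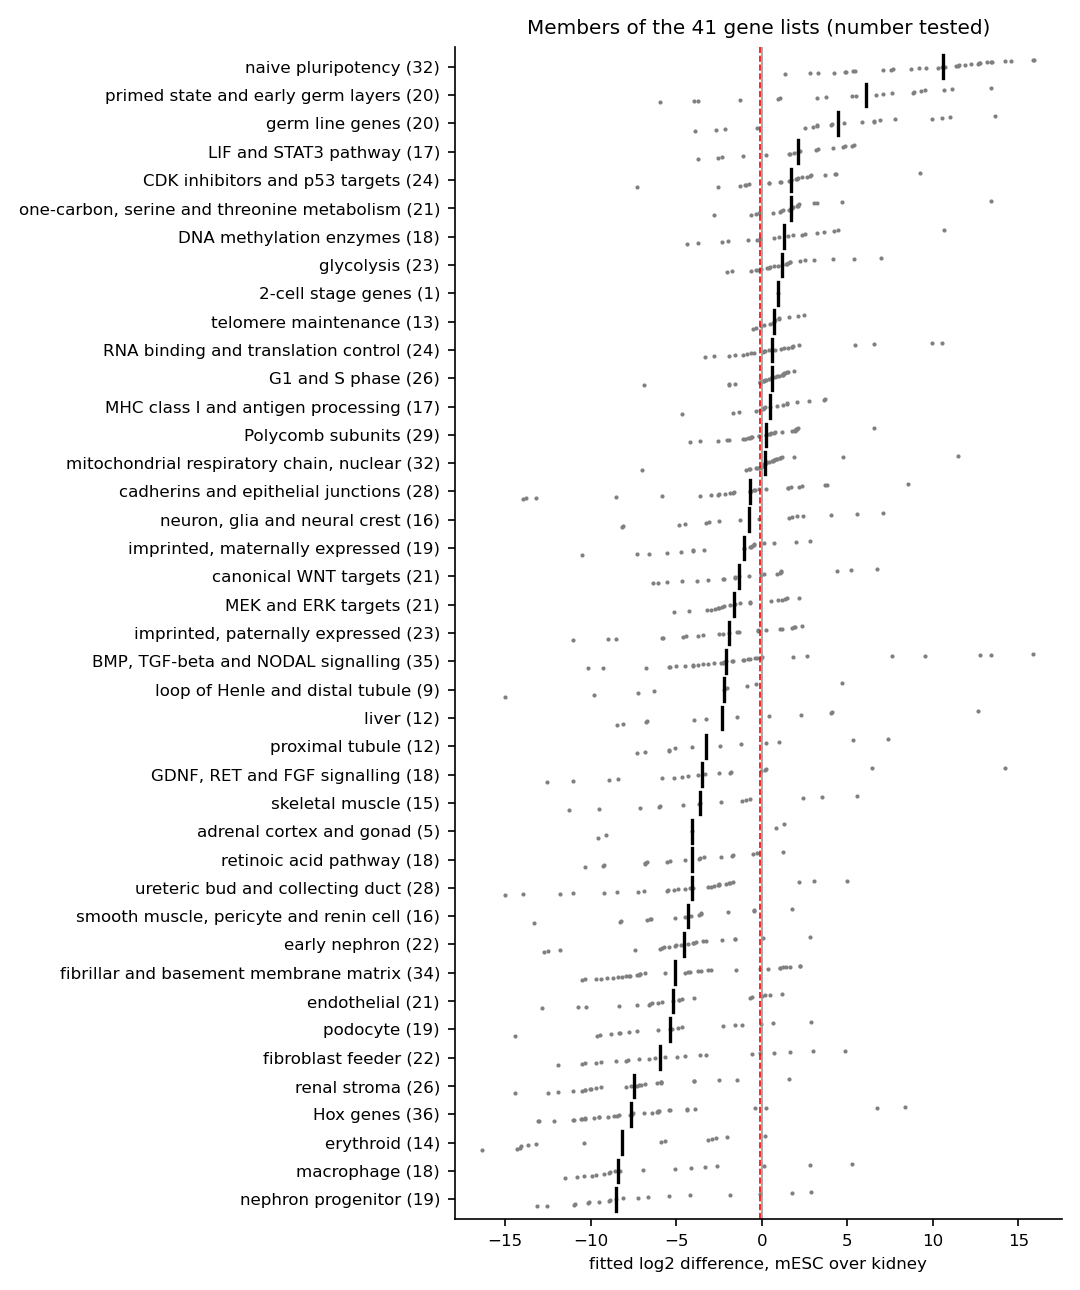
Fitted log2 difference, mESC over kidney, of each tested autosomal member (dots) of the 41 gene lists, with the number tested in brackets, a black bar at each list's median and a red dashed line at -0.09, the median of all autosomal genes tested. Naive pluripotency lies at one end (10.61) and nephron progenitor genes at the other (-8.51).

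Hox genes, which give cells their position along the body axis, were low in mESCs and mostly higher in kidneys. Of 36 genes tested, 33 were higher in kidney (32 at 4-fold, median -7.64), 2 in mESCs and 1 was not called. In kidneys the levels peaked at groups 10 and 11, with Hoxa10 at 112, 132 and 142 TPM, Hoxd11 at 80.8, 97.3 and 107 TPM and Hoxc10 at 57.5 to 68.4 TPM. Hoxb2 (25.9 to 39.5 TPM) and Hoxb6 (20.7 to 33.2 TPM) had no count in mESCs and were at least 1971-fold and 1827-fold higher. The ends of the clusters differed from this: Hoxa13, Hoxb13 and Hoxd13 were at or below 0.7 TPM in every sample. Hoxc13 (15:102921103-102928814, plus strand) stood at 5.58, 6.74 and 7.95 TPM in mESCs and at most 0.03 TPM in kidneys (log2 difference 8.39 ± 0.183, adjusted p = 1.39e-15), and its neighbour Hoxc12 at 2.32 to 5.72 against at most 0.21 TPM. The 6 kidneys together held 6 counts of Hoxc13, so that its ± value can understate the error. The summed level of the list was 13.2 to 19.6 TPM in mESCs and 695 to 884 TPM in kidneys.

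**Figure D4:**
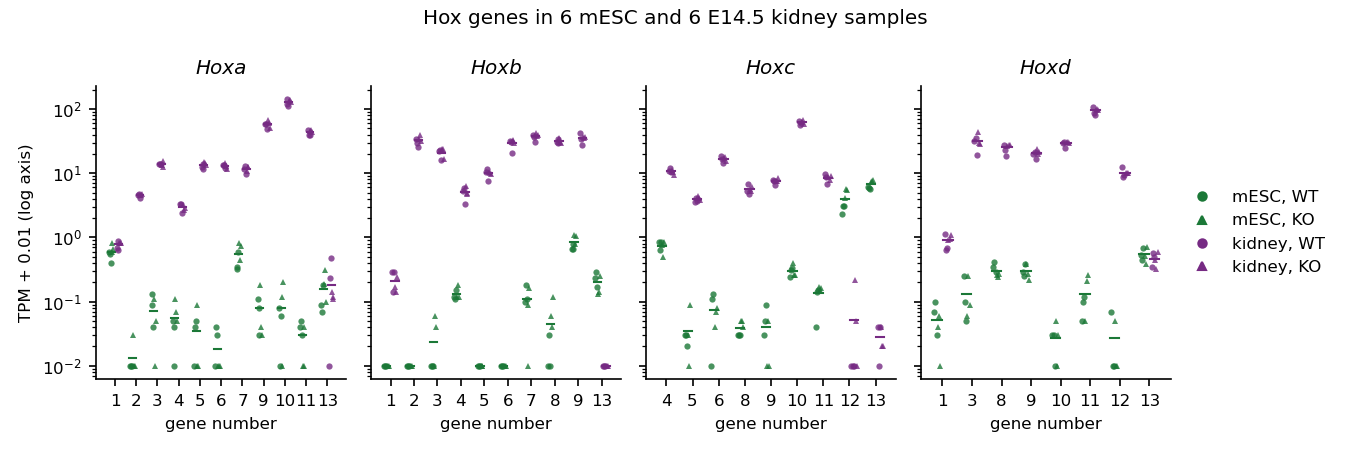
TPM + 0.01 (log axis) of the 38 Hox genes in the files by cluster and gene number, for 6 mESC (green) and 6 kidney samples (purple), circles for WT, triangles for KO and a line at the mean. Kidney levels lie above mESC levels from the start of each cluster to groups 11 and 12, and Hoxc12 and Hoxc13 are the reverse.

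Imprinted genes of both parental classes were more often higher in kidney. Of 19 maternally expressed genes 15 were higher in kidney (8 at 4-fold, median -1.04) and 3 in mESCs, and of 23 paternally expressed genes 16 were higher in kidney (11 at 4-fold, median -1.9) and 6 in mESCs. H19 (7:142575529-142578143, minus strand), a growth-limiting noncoding RNA, stood at 2346, 2630 and 2735 TPM in kidneys and 1.49 to 2.4 TPM in mESCs (log2 difference -10.5 ± 0.1, adjusted p = 2.71e-19). Its neighbour Igf2, the fetal growth factor, stood at 1.23 to 3.02 against 915 to 1056 TPM, Cdkn1c, a CDK inhibitor, at 3.7 to 4.33 against 540 to 741 TPM, and Dlk1 at 0.17 to 0.4 against 144 to 283 TPM. Mest (20.7 to 24.5 against 986 to 1418 TPM) and Gnas (79.1 to 112 against 940 to 1026 TPM) were as abundant. Phlda2, which limits placental growth (18.4 to 26.8 against 2.37 to 3.72 TPM), and Sfmbt2 (5.75 to 6.94 against 1.14 to 2.09 TPM) were higher in mESCs. Within mESCs the clones differed at the Dlk1-Meg3 cluster: Rian stood at 261 to 272 TPM in the WT wells and 82.9 to 110 in the KO wells, on either side of the kidneys (156 to 241 TPM), and Meg3 at 123 to 127 and 41.2 to 69.8 TPM.

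Genes of DNA methylation went in both directions. Of 18 genes 11 were higher in mESCs (7 at 4-fold) and 7 in kidney (3 at 4-fold), with a median of 1.28. The de novo enzyme Dnmt3b and its cofactor Dnmt3l stood at 61.4 to 87.2 and 71.8 to 200 TPM in mESCs against at most 8.95 and 0.63 TPM in kidneys, while Dnmt3a had a median of 10.6 TPM in mESCs and stood at 64.5 to 86.7 TPM in kidneys. Dnmt3l was at 185 to 200 TPM in the WT wells and 71.8 to 83.8 TPM in the KO wells. Of the TET enzymes, which oxidise methylcytosine, Tet1 (91.5 to 93.6 against 5.55 to 7.24 TPM) and Tet2 were higher in mESCs and Tet3 in kidney (0.74 to 1.11 against 17.9 to 21.1 TPM). Zfp57 and Trim28, which guard imprints, stood at 463 to 614 and 981 to 1139 TPM in mESCs against 36.3 to 44.1 and 281 to 339 TPM. Apobec2, a cytidine deaminase family member, was also higher in mESCs (10 to 12.1 against 0.17 to 1.08 TPM).

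Polycomb subunits, which repress developmental genes, went in both directions, at shares near those of all genes. Of 29 genes 16 were higher in mESCs (3 at 4-fold) and 12 in kidney (4 at 4-fold), with a median of 0.27. The PRC2 subunits Eed, Suz12 and Ezh2 were higher in mESCs, with Eed at 167 to 189 against 40.6 to 50 TPM, Suz12 at 154 to 167 against 35.8 to 44.7 and Ezh2 at 140 to 155 against 75.3 to 91.4 TPM. Among the CBX readers of PRC1, Cbx7 was the mESC member (129 to 159 against 0.63 to 1.62 TPM), while Cbx2, Cbx6 and Cbx8 were higher in kidney. Phc1 stood at 130 to 153 against 30.2 to 32.7 TPM, and its relative Phc2 at 9.97 to 15.9 against 66.9 to 78 TPM. Phf19, Bmi1 and Yaf2 were higher in kidney as well (at most 1.68, 19.5 and 3.65 TPM in mESCs, against 21.4 to 29.4, 48.5 to 77.8 and 35.1 to 42.6 TPM).

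Ligands, receptors and targets of the kidney's growth factor pathways were mostly higher in kidney. Of 18 genes of GDNF, RET and FGF signalling, 13 were higher in kidney (11 at 4-fold, median -3.5) and 3 in mESCs. Gfra1, the GDNF co-receptor, stood at at most 0.1 against 39.2 to 61.5 TPM, and Fgfr1 and Fgfr2 at 31.1 to 39.7 and 3.22 to 4.74 TPM against 104 to 147 and 44.4 to 65.5 TPM. Fgf4 and Fgf17 (9.26 to 15.8 against at most 0.42 TPM) were the mESC ligands, while Fgf1, Fgf9 and Fgf20 were kidney ligands, Fgf20 at 3.03 to 4.05 TPM. Of 35 genes of BMP, TGF-beta and NODAL signalling 25 were higher in kidney (18 at 4-fold, median -2.12) and 7 in mESCs. The 7 included the NODAL branch (Nodal, Tdgf1, Lefty1, Lefty2 and Gdf3), with Inhbb and Smad7. The ligands Tgfb3 (at most 0.04 against 28.7 to 43 TPM) and Bmp5 (1.73 to 3.03 TPM) and the BMP targets Id1 (1.34 to 2.78 against 78.3 to 98.1 TPM), Id2 (10.9 to 13.7 against 148 to 193 TPM) and Id3 (17.6 to 26.2 against 164 to 235 TPM) were higher in kidney.

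Retinoic acid genes, which couple stroma to bud branching, were higher in kidney for 17 of 18 genes tested (13 at 4-fold, median -4.07). Rarb, a receptor that is itself a target, stood at 28.2, 29.5 and 31.2 TPM in kidneys and at most 0.05 TPM in mESCs, and Stra6, the retinol transporter, at at most 0.11 against 26.8 to 34.2 TPM. The binding proteins Crabp1 and Crabp2 stood at 12.6 to 15 and 5.94 to 11.6 against 147 to 236 and 177 to 225 TPM. The receptor Rara alone was higher in mESCs (41.5 to 45.2 against 17.6 to 19.6 TPM).

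Glycolytic genes were higher in mESCs for 17 of 23 genes (6 at 4-fold, median 1.19) and in kidney for 5. Slc2a3 (GLUT3) stood at 459, 487 and 578 TPM in mESCs and 4.37 to 5.05 TPM in kidneys (log2 difference 6.95 ± 0.0618, adjusted p = 1.77e-19), and Pfkp, the platelet-type phosphofructokinase, at 136 to 172 against 3.25 to 3.82 TPM. Gapdh, often used as a reference gene, was 3.18-fold higher in mESCs (7482 to 8163 against 2059 to 2379 TPM). Tpi1 was not called, and Eno3 (8.19 to 10.2 against 31.3 to 41 TPM) and Pdk2 were higher in kidney. The list's summed level was 17342 to 18107 TPM in mESCs and 5575 to 6715 TPM in kidneys.

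Genes of serine, glycine and threonine metabolism and of the folate cycle were higher in mESCs for 17 of 21 genes (8 at 4-fold, median 1.69) and in kidney for 4. Tdh, the mitochondrial threonine dehydrogenase on which mouse stem cells depend (14:63492347-63509092, minus strand), stood at 637, 665 and 693 TPM against at most 0.11 TPM. The glycine cleavage genes Amt (152 to 176 against 14.2 to 21.3 TPM) and Gldc (71.4 to 132 against 9.14 to 14.3 TPM) and the folate enzyme Aldh1l1 (21.5 to 25.7 against 0.81 to 1.28 TPM) were also higher in mESCs. Mthfd2l stood at 1.88 to 2.24 against 12.5 to 15 TPM and Phgdh, which starts serine synthesis, at 125 to 147 against 185 to 224 TPM.

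Of 32 nuclear genes of the respiratory chain and its regulators 20 were higher in mESCs (2 at 4-fold) and 8 in kidney (1 at 4-fold), with a median of 0.21. Most subunits differed little, such as Uqcrc2 (189 to 214 against 185 to 228 TPM, not called), while Cox5a stood at 621 to 662 against 159 to 192 TPM and Cox7a1, a muscle-type subunit, at 50.8 to 70 against 0.91 to 3.3 TPM. The regulators were at the extremes, with Esrrb in mESCs and Ppargc1a, the master regulator of mitochondrial genes, in kidney (at most 0.02 against 1.4 to 1.97 TPM).

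Most genes of the cell cycle list differed by less than 4-fold. Of 26 genes of G1 and S phase 16 were higher in mESCs (0 at 4-fold) and 7 in kidney (1 at 4-fold), with a median of 0.57. The licensing factor Cdt1 stood at 116 to 140 against 32.1 to 37 TPM and Mcm3 of the replicative helicase at 294 to 302 against 93.4 to 112 TPM, and Pcna was not called. Ccnd2 (cyclin D2) stood at 0.91, 1.1 and 1.53 TPM in mESCs and 123, 142 and 147 TPM in kidneys (log2 difference -6.86 ± 0.106). Of 24 CDK inhibitors and p53 targets 18 were higher in mESCs (10 at 4-fold, median 1.71) and 6 in kidney. Cdkn2a stood at 37.7 to 42.5 against at most 0.13 TPM, the p53 targets Cdkn1a (p21) at 113 to 148 against 5.43 to 7.16 and Pmaip1 (NOXA) at 23 to 26.3 against 0.86 to 1.67 TPM, and Trp53 at 331 to 355 against 96.6 to 113 TPM. Cdkn1c was the main inhibitor in kidney. Of 13 telomere genes 9 were higher in mESCs, led by Rif1 (137 to 144 against 23.1 to 32.2 TPM) and Terf1 (106 to 123 against 22.5 to 27.7 TPM), and 2 in kidney, Terf2ip (7 to 7.84 against 9.43 to 11.1 TPM) and Nop10.

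Adhesion and matrix genes were higher in kidney for most members. Of 28 cadherins and junction genes 8 were higher in mESCs (5 at 4-fold) and 19 in kidney (10 at 4-fold), with a median of -0.7. Cldn1, Cldn8 and Cdh16 had no count in mESCs. Of 34 matrix genes 25 were higher in kidney (24 at 4-fold, median -5.07) and 8 in mESCs. Col1a2 and Col3a1, the fibrillar collagens of mesenchyme, stood at 168 to 320 and 275 to 455 TPM in kidneys, while members higher in mESCs included the basement membrane genes Lama5 (41.3 to 62.5 against 9.5 to 14.3 TPM), Nid2 (136 to 170 against 26.1 to 35.5 TPM) and Lamc1 (156 to 204 against 58.9 to 83.4 TPM). The list of feeder fibroblast genes, which overlaps this one, was higher in kidney for 17 of 22 genes (16 at 4-fold, median -5.96). Its summed level in mESCs, 1387 to 1605 TPM, came mainly from Fn1 (396 to 486 TPM) and Sparc (642 to 775 TPM), while Postn (at most 0.19 TPM) and S100a4 (0) were near or at the floor, and Ctgf was higher in mESCs (21.6 to 26.9 against 2.5 to 3.87 TPM).

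Genes of antigen presentation and of RNA control were mixed. Of 17 genes of the first list 9 were higher in mESCs (4 at 4-fold), 3 in kidney and 5 were not called. Ifitm3 and Ifitm1, interferon-induced membrane proteins, stood at 516 to 556 and 345 to 463 against 36.2 to 45.8 and 23 to 32.5 TPM, while B2m, the MHC class I light chain, stood at 25.9 to 35.5 against 82.1 to 112 TPM and Psmb8 at most 0.08 against 0.6 to 1.35 TPM. Of 24 genes of RNA binding and translation control 15 were higher in mESCs (5 at 4-fold) and 8 in kidney, with a median of 0.6. Lin28a, which blocks let-7 maturation, stood at 147 to 185 against 0.02 to 0.31 TPM and Khdc3 at 21 to 34.8 against at most 0.13 TPM, while Tdrd7 (0.46 to 1.16 against 4.82 to 7.89 TPM) and the splicing factor Mbnl1 (2.14 to 5.42 against 12.2 to 14.3 TPM) were higher in kidney.

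The 24 pairs of related genes, of which the first is known from stem cells and the second from kidney or many tissues, showed how a family's member changed. In 14 pairs the first gene was higher in mESCs and the second in kidney, and in 5 both were higher in mESCs. Of all autosomal genes tested, 42.8% were higher in mESCs and 47.5% in kidney. In 19 pairs the more abundant member by TPM was the first in mESCs and the second in kidney. Among these 19, Zic2 and Zic1 were near the floor in kidneys (means of 0.0717 and 0.27 TPM). The pairs were chosen by such roles, with earlier results of these data known, so that the counts of pairs are a description and not a test. The abundant member was exchanged for Tfap2c (44.3 to 54.2 TPM in mESCs, at most 0.37 in kidneys) and Tfap2b (at most 0.01 and 1.53 to 2.85 TPM). The same held for Sox2 (250 to 268, at most 0.89) and Sox9 (at most 0.09 in mESCs, 7.78 to 9.7 TPM in kidneys). It also held for Gdf3 (110 to 136, at most 0.03) and Gdf11 (0.56 to 0.95, 10.2 to 13.2), and for Esrrb and Esrrg (at most 0.02, 1.5 to 1.79). E-cadherin (Cdh1) stood at 206 to 249 TPM in mESCs and 12.4 to 25.3 in kidneys and N-cadherin (Cdh2) at 6.03 to 7.59 and 41.7 to 63.4 TPM. Mycn was 2.6-fold higher in mESCs while Myc stood at 7.67 to 9.94 against 42.5 to 54.3 TPM. Sall4 (124 to 133 against 0.14 to 0.72 TPM) was paired with a Sall1 that did not pass the test. In other pairs both members went 1 way, as for the glucose carriers Slc2a3 and Slc2a1 (197 to 237 against 30.1 to 43.1 TPM), the hexokinases Hk2 (113 to 140 against 13.9 to 16.9 TPM) and Hk1 (51.8 to 57.4 against 24.1 to 30.8 TPM), and Klf2 (113 to 124 against 2.17 to 4.3 TPM) and Klf6, all higher in mESCs, and for Bmp4 and Bmp7 and for Spry4 and Spry1, higher in kidney. Lactate dehydrogenase ran against its order, with Ldha slightly higher in kidney (521 to 585 against 552 to 768 TPM) and Ldhb higher in mESCs (365 to 378 against 140 to 186 TPM). Prdm16 differed by 0.28 ± 0.0709 in counts but stood at 6.15 to 9.83 against 2.82 to 4.65 TPM. Counts, unlike TPM, are not scaled by transcript length, and the cause of this gap was not tested. Zic1 was not tested (at most 1.27 TPM).

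**Figure D5:**
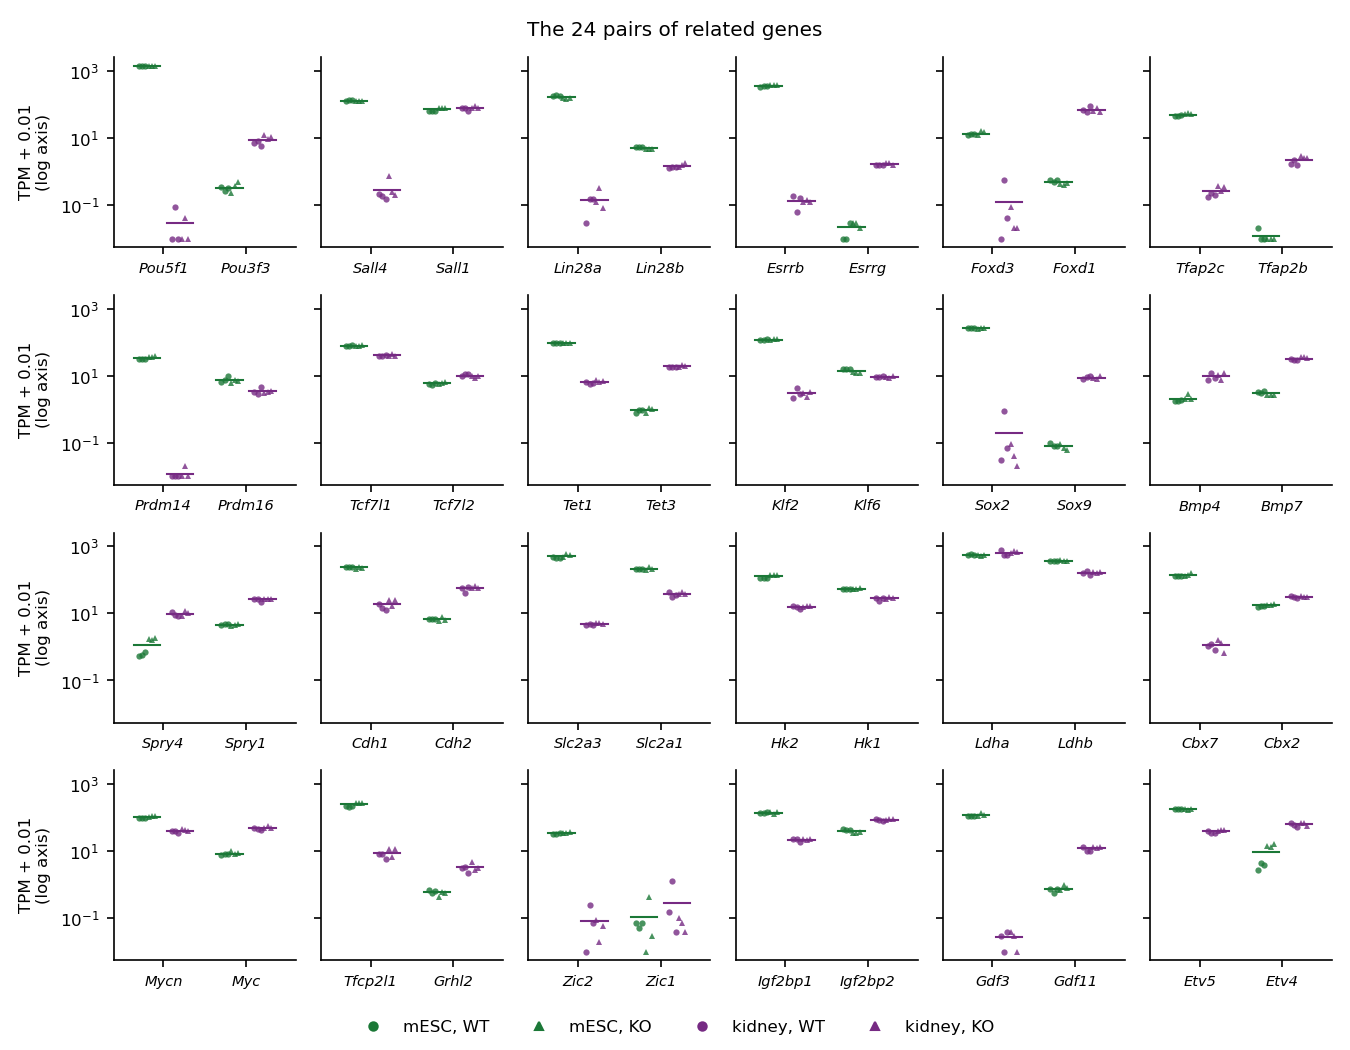
TPM + 0.01 (log axes) of both members of the 24 pairs in 6 mESC (green) and 6 kidney samples (purple), circles for WT, triangles for KO and a line at the mean. The pairs Tfap2c and Tfap2b and Gdf3 and Gdf11 exchange the abundant member, while Slc2a3, Slc2a1, Hk2 and Hk1 are each higher in mESCs.

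The difference varied somewhat between autosomes. The median log2 difference per autosome ran from -0.39 on chromosome 6 to 0.13 on chromosome 17, and the share of genes at least 4-fold higher in kidney from 14.1% on chromosome 17 to 30% on chromosome 18 (29.9% on chromosome 6). Between the clones the medians per autosome stayed between -0.03 and 0.048. By annotated gene type, 9.9% of 14516 protein-coding genes were at least 4-fold higher in mESCs and 20.7% in kidney, while of 382 lincRNA genes the shares were 26.7% and 21.7%. Of 379 antisense genes, 26.9% were at least 4-fold higher in kidney. The antisense counts are uncertain because the library kit did not keep the strand.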

How the data were processed

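The authors made poly(A) libraries with the Illumina TruSeq kit, which does not keep the strand, aligned the reads to mm10 and quantified them with RSEM, and deposited for each sample a gene table of expected counts, which are not normalized, and of TPM values, which the authors' RSEM run scaled by length and library size. Annotation of the authors' index is not given in the sources used here, and positions and gene types come from GENCODE vM21, which matched 96.6% of 26759 genes. The table of the reporter assay and the other tissue were not compared here.

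Expected counts were rounded to whole numbers and tested with edgeR 4.0.16 (R 4.3.3) by the quasi-likelihood test, with TMM factors, filterByExpr, tissue and genotype as terms and Benjamini-Hochberg adjustment over 16463 genes. SE is the log2 difference over the square root of F, and it can fall below the counting error where 1 tissue has few counts. The difference of the tissue effect between genotypes was tested with 1 coefficient per tissue and genotype. TPM values served for levels. Lists were described without a test. Scripts were tested on simulated data. Alternatives were DESeq2 1.42.0, other factors, filters, covariates and sets of samples, wells summed per clone and leaving out each sample.

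Genes were named by rule: the 10 largest differences per direction among protein-coding genes with a mean of at least 10 TPM, up to 2 leading members per list and the leading member in the other direction, all members of the 24 pairs, 5 genes per direction without a count in the other tissue, the markers, LacZ and Peril. Other list members were named after their values were seen. The lists, pairs and comparison were chosen with earlier results of these data known. A tissue with no count was given 3 counts over its 6 samples for a lower bound, and with 1 to 3 counts a ratio has a 95% exact interval; both cover counting error only. Promoter sequences are from RefSeq (GRCm38.p6), taking the first window listed for a gene. Where a gene has near-identical copies, the estimate divides shared reads and is uncertain. Some genes are not reported here, although they stay in the counts and medians of their lists.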

Additional observations from a re-analysis of the deposited data

Results flagged for a closer look

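In 18 of 234 groups of 6 samples, 1 sample lay far from the other 5 by Dixon's test at 95%, of which chance gives about 1 in 20. Kidney WT 8 gave 6 of them, with Col1a1 at 392 TPM (214 to 269 in the others), Col3a1 at 455 (275 to 334), Prdm16 at 4.65 (2.82 to 3.37), Sfmbt2 at 2.09 (1.14 to 1.38), Hoxb6 at 20.7 (29.2 to 33.2) and Spry1 at 21.3 TPM (26.9 to 27.6). Kidney WT 3 was high for the alpha-globins Hba-a1 (1583 TPM, at most 876 in the others) and Hba-a2 (6133 TPM, at most 3468) and low for Cdh2 (41.7 TPM, 55.6 to 63.4). Kidney KO 10 was high for Rgs5 (47.2 TPM, 33.8 to 38.2) and Mc2r (3.2 TPM, 1.86 to 2.35). Among the wells, KO 1 was low for Fgf4 (158 TPM, 176 to 181) and AU018091 (59.2 TPM, 66 to 70) and high for Terf2ip (7.84 TPM, 7 to 7.3). Well KO 3 was high for Cbx7 (159 TPM, 129 to 138) and Lif (6.28 TPM, 4.65 to 5.1), KO 2 for Bmp4 (2.76 TPM, 1.7 to 2.07), and WT 1 for Mthfd2l (2.24 TPM, 1.88 to 2).

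The tissue difference (log2, mESC over kidney) was not the same in KO as in WT samples for 8 of 178 named genes tested (edgeR interaction). Over all 15691 autosomal genes tested, this held for 406 (2.59%), and 1 of the 8 was LacZ, which the KO allele itself carries. The KO minus WT value was 12.36 for LacZ, which replaces Peril in the KO (adjusted p = 6.32e-08), 2.73 for Ttn (adjusted p = 0.000308), 1.83 for Etv4 (adjusted p = 2.39e-05) and 1.41 for Spry4 (adjusted p = 0.00237). It was -0.37 for Igf2bp2 (adjusted p = 0.0171), -0.48 for Bmp7 (adjusted p = 0.00694), -0.58 for Mcam (adjusted p = 0.0149) and -2.08 for Col3a1 (adjusted p = 0.0388). Some of these values rest on levels near the floor. Col3a1 stood at 0.34 to 0.5 TPM in the WT wells and 0.05 to 0.11 in the KO wells. Ttn stood at 0.04 to 0.07 TPM in WT kidneys and 0.01 to 0.03 in KO kidneys. In the wells Ttn stood at 1.16 to 1.3 TPM (WT) and 1.47 to 1.76 TPM (KO). Genotype in the wells is 1 clone each, so that genotype and clone cannot be told apart there.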

How the results depend on the processing

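Wells of 1 clone per genotype and the confounding of tissue with culture limit every comparison, genes without a count in 1 tissue have lower bounds only, and ratios over 1 to 3 counts have wide intervals. The 4 counts of autosomal genes stayed within 1.5 times their value under the other settings run, except that the count of autosomal genes at least 4-fold higher in mESC (1661) became 3387 at 2-fold in place of 4-fold and 3034 by edgeR's glmTreat against 2-fold. Leaving out each sample in turn gave 1696 to 1743 such genes, and 3333 to 3386 autosomal genes at least 4-fold higher in kidney. Library totals alone moved the median of all autosomal genes from -0.09 to -0.28 and the share of calls that were higher in mESCs from 47.4% to 41.3%. A replicate block by well number within mESCs gave 6650 autosomal genes called higher in mESC and 7423 autosomal genes called higher in kidney; same-numbered wells of the clones correlated at 0.015, 0.019 and 0.032 and share only a number. Of the list medians recomputed, 981 moved by less than the spread between samples, 162 moved by more without changing sign and 5 changed sign, for proximal tubule (0.18, WT samples alone), for neuron, glia and neural crest (1.84 in KO samples alone, 1.7 in WT samples alone, 1.77 with a filter at 1 CPM in 3 samples) and for liver (0.34, KO samples alone). Fewer genes were tested in these settings. Of the named genes, Sall1 was 0.02 with wells summed per clone (adjusted p = 0.775) and passed the test in 9 alternatives (adjusted p = 2.2e-05 to 0.0458). Klf1 was -0.0 with library totals alone (adjusted p = 0.991). Prdm16 lost its call in KO samples alone and with library totals, Ldha in WT samples alone and with summed wells, Sox10 with summed wells and T in WT samples alone; the cause was not tested.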
